A study of Mus musculus with 9 samples.

Results

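The AP-1 and early growth response (EGR) factors are 10 transcription factor genes chosen by name: Fos, Fosb, Fosl1, Fosl2, Jun, Junb, Jund, Egr1, Egr2 and Atf3. Of these, 9 had a row of their own in the normalized table, which held 22354 gene symbols in 24367 rows. Fosl1 had none, and the 1 probe set annotated to it is shared with Ccdc85b, so no value is given for it. Expression was measured on GeneChip Mouse Gene 2.0 ST arrays in the middle of the tibia, with callus and hematoma where it was broken, in 9 samples from female mice, 3 in each of 3 groups. By their labels, all mice were 2 months old. Control mice had no fracture and received no NSAID. Active mice had an open tibia fracture and then the NSAID carprofen, an inhibitor of the COX enzymes, at 20 mg/kg for 3 days at the active time (ZT13, just after lights off). Resting mice had the same fracture and dose at the resting time (ZT2, soon after lights on). All tissue was taken at ZT6, in the fractured mice on day 3 and 78 hours after surgery. By the paper, Active mice had then been without NSAID for over 18 hours and Resting mice for over 30 hours. These hours do not match the dosing and harvest times exactly. The fractured mice also had anesthesia, buprenorphine and a pin in the bone, by the description of the surgical model, and no group had a fracture without NSAID. Fracture, surgery and drug therefore cannot be told apart in any comparison with Control. The labels do not say that the arrays of a group came from separate extractions, and the paper speaks of RNA pools, so a p-value here weighs only the variation among these RNA samples, which may be technical.

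Most of these genes were higher in the fractured tibia than in the unfractured one, in both NSAID groups. Against Control, 6 of the 9 measured genes rose in the Active group (11.8% of all rows did) and 8 of the 9 rose in the Resting group (9.08% of all rows did). None fell in either, while 23.9% and 19.1% of all rows passed in one direction or the other. Jun rose most of the 9, to 2.75-fold in Active and 3.19-fold in Resting mice, and Egr1 rose 1.78-fold and 2.01-fold. Jund passed in neither group. Between the Active and the Resting group, no member passed, and 0% of all rows did.

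AP-1 is a dimer of basic leucine zipper proteins. Fos family proteins bind DNA only when paired with a Jun family protein, while Jun proteins can also pair with each other or with ATF proteins such as Atf3. Fos, Jun and Egr1 are immediate early genes: their transcription starts within minutes of a signal, without new protein synthesis, and usually falls again quickly. The EGR proteins are zinc finger factors that bind GC-rich sites. In bone, Fos is required for osteoclasts to form, and Fosl2 and Junb act in osteoblasts and cartilage cells.

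Sequences upstream of the start are shown for 5 members, picked after the search as examples of the elements found: CRE cores, CRE-like octamers, an EGR site and a CArG box. Junb, Jund and Fosl2 also had a match and are not printed. The sequences were taken from RefSeq promoters (build GRCm38.p6), in which 8 of the 10 genes were matched by symbol. In the search of the members, though not in the shares of all promoters, the entries of a chromosome were left out. Egr1 and Fosl1 had no entry among those searched, so nothing is said here of their promoters. Each line gives the 130 bases before the annotated start, 5′ to 3′ on the strand of the gene. Capitals mark 4 kinds of motif: TGACG (the core of the cyclic AMP response element, CRE), the CRE-like octamer TNACNTCA, the EGR site GCGNGGGCG and the CArG box, which serum response factor (SRF) binds.
Fos, chr12:85473760-85473889, plus strand: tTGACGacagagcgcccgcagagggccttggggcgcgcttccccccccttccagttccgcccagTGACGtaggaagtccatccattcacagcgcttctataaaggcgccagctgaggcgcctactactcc
Fosb, chr7:19310046-19310175, minus strand: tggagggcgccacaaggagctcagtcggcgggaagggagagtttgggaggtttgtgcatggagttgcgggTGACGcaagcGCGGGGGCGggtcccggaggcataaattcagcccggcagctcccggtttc
Jun, chr4:95052223-95052352, minus strand: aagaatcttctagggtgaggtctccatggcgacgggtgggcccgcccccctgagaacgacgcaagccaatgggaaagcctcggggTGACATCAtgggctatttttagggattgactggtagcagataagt
Egr2, chr10:67537739-67537868, plus strand: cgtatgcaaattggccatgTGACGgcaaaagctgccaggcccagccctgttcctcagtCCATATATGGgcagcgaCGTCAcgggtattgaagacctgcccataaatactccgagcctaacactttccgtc
Atf3, chr1:191183334-191183463, minus strand: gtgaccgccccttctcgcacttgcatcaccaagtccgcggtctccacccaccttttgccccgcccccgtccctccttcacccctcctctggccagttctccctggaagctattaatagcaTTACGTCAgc

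In the Fos sequence, TGACG begins 129 and 66 bases before the start. In Fosb, TGACG begins 60 bases and the EGR site 50 bases before it. The Jun octamer TGACATCA begins 45 bases before the start and is known to be bound by dimers of Jun and ATF proteins. In Egr2, which has 5 annotated starts in the table, the CArG box begins 72 bases before the start shown here and lies between a pair of TGACG matches, 1 on each strand. In Atf3, the octamer TTACGTCA begins 10 bases before the start, and the TGACG match on the opposite strand lies inside it. Over the 250 bases upstream, searched on both strands, TGACG was found in 5 of the 8 members and in 17.8% of 32851 RefSeq promoters. The octamer was found in 3 members (Jun, Jund and Atf3) and in 14% of promoters, the EGR site in Fosb and Fosl2 and in 4.70% of promoters, and the CArG box in Egr2 and in 1.47% of promoters. The AP-1 site TGANTCA was in 0 of the 8 members in this window and in 6.75% of promoters. Egr2 was counted if any of its 5 starts had the motif, while the shares of all promoters count each promoter once. The motifs were chosen after the promoters of the members were seen. The counts among the members therefore cannot be weighed against the shares of all promoters. A match describes the sequence and is not evidence of binding.

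All values that follow are the normalized signals deposited by the authors, on a scale taken to be log2, so that a difference of 1 is a doubling. Differences were tested with limma in 1 fit of the 9 arrays, with p-values adjusted over all 24367 rows and a threshold of 0.05. With 3 arrays against 3, the smallest p of an exact two-sided permutation test is 0.10, which was reached wherever groups did not overlap. Both fracture groups were compared with the same 3 Control arrays, so these comparisons are not independent.

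Fos, the founding member of the Fos family, rose in both groups. Its log2 signals were 6.90, 6.54 and 6.63 in the Control arrays, 7.49, 7.40 and 7.47 in the Active arrays and 8.41, 8.06 and 7.38 in the Resting arrays. All fractured samples lay above all Control samples, and the Resting samples spread widely around the tight Active group (SD 0.52 against 0.051). The log2 difference from Control was 0.76 in Active mice (SE 0.22, adjusted p = 0.025) and 1.26 in Resting mice (SE 0.22, adjusted p = 0.0021). The Active call was lost without Control replicate 2 or 3 or without any 1 of the Active arrays (adjusted p from 0.054 to 0.089).

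Fosb encodes a further Fos protein, known from the nervous system and from bone, where a short form of it raises bone mass in mice. Its log2 signals were 5.78, 5.31 and 5.52 in Control, 7.31, 6.13 and 6.21 in Active and 7.77, 7.33 and 6.03 in Resting arrays. Again every fractured sample was above every Control sample, but within each fracture group the samples lay more than a unit apart. The log2 difference was 1.01 in the Active group (SE 0.42, adjusted p = 0.11) and 1.51 in the Resting group (SE 0.42, adjusted p = 0.027), where Fosb rose. The Resting call was lost without Control replicate 2 or 3 or Resting replicate 1 or 2 (adjusted p from 0.080 to 0.096). In the Active group, the adjusted p was 0.032 without Resting replicate 3, the array with the lowest Fosb of that group. Without Active replicate 1, the Active difference was 0.63 (adjusted p = 0.34).

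Fosl2 encodes Fra-2, which lacks the strong activation domain of Fos. It had log2 signals of 8.64, 8.60 and 9.0 in Control, 9.51, 8.92 and 9.26 in Active and 9.58, 9.43 and 9.36 in Resting arrays. The Resting samples lay above all Control samples, while 1 Active sample was below the highest Control sample. The log2 difference was 0.49 in the Active group (SE 0.16, adjusted p = 0.052) and 0.71 in the Resting group (SE 0.16, adjusted p = 0.010), so Fosl2 rose in the Resting group. Without Control replicate 3 or Active replicate 2, the Active difference also passed (adjusted p = 0.031 and 0.014).

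Jun, the partner shared by all Fos proteins, had the largest difference among the members that passed in either group. Its log2 signals were 7.98, 8.02 and 7.87 in Control, 9.95, 8.76 and 9.54 in Active and 9.68, 9.96 and 9.25 in Resting arrays. The lowest fractured sample lay 0.73 above the highest Control sample. The log2 difference was 1.46 in Active mice (SE 0.27, adjusted p = 0.0023) and 1.68 in Resting mice (SE 0.27, adjusted p = 0.0013), and both passed without any 1 array (adjusted p at most 0.012).

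Junb, which can oppose Jun at some promoters, followed with a smaller difference. The signals were 8.62, 8.21 and 8.86 in Control, 9.68, 9.0 and 9.78 in Active and 9.35, 9.79 and 9.57 in Resting arrays, and the groups did not overlap with Control. The log2 differences were 0.92 (SE 0.22, adjusted p = 0.011) and 1.01 (SE 0.22, adjusted p = 0.0089). Without Active replicate 3, the Active call was lost at an adjusted p of 0.050.

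Jund, the Jun family gene that most cells express steadily, passed in neither comparison with Control. Its signals were 6.13, 6.26 and 6.42 in Control, 6.32, 6.31 and 6.26 in Active and 6.33, 6.43 and 6.33 in Resting arrays, and the fractured samples lay within or just above the Control range. The log2 difference was 0.03 in the Active group (95% interval -0.20 to 0.25) and 0.09 in the Resting group (-0.14 to 0.32). These intervals exclude a doubling of the signal of this row, whose mean stood at percentile 48.3 of all rows. How fully its signal follows the amount of RNA was not tested. A second row for Jund, with a lower mean signal (percentile 39.2), had log2 differences of 0.05 and 0.18, and neither passed. In that row the Resting arrays lay above the Control arrays by a gap of 0.036, and 17.6% of all rows were higher without overlap.

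Atf3, a stress-induced factor that pairs with Jun proteins or represses as a homodimer, had Resting values close together. Its signals were 6.13, 5.83 and 5.86 in Control, 6.46, 6.65 and 7.04 in Active and 6.60, 6.72 and 6.61 in Resting arrays. The fractured samples all lay above Control, and the Active samples spread to either side of the Resting ones. Atf3 rose by 0.77 in Active mice (SE 0.15, adjusted p = 0.0031) and by 0.70 in Resting mice (SE 0.15, adjusted p = 0.0070). Both differences passed without any 1 array.

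Egr1, induced through SRF and its ETS partners in many cell types, had signals of 6.67, 6.35 and 6.42 in Control, 7.38, 7.42 and 7.13 in Active and 7.75, 7.44 and 7.26 in Resting arrays. The gap between the Control arrays and the nearest fractured array was 0.46. Egr1 rose by 0.83 in Active mice (SE 0.15, adjusted p = 0.0020) and by 1.01 in Resting mice (SE 0.15, adjusted p = 0.00083), and passed without any 1 array (adjusted p at most 0.011). Egr2, a factor of myelinating Schwann cells and of macrophages, had signals of 7.29, 7.02 and 6.87 in Control, 7.71, 7.37 and 7.55 in Active and 7.64, 7.52 and 7.52 in Resting arrays. The groups were apart from Control by a narrow gap, 0.07 in the Active comparison. Egr2 rose by 0.48 (SE 0.13) and 0.50 (SE 0.13), with an adjusted p of 0.022 in each. Its calls depended on single arrays: the Active one was lost without Control replicate 2 or 3 or Active replicate 1 or 3 (adjusted p up to 0.091), and the Resting one without Control replicate 2 or 3 or any Resting array (adjusted p up to 0.092).

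**Figure D1:**
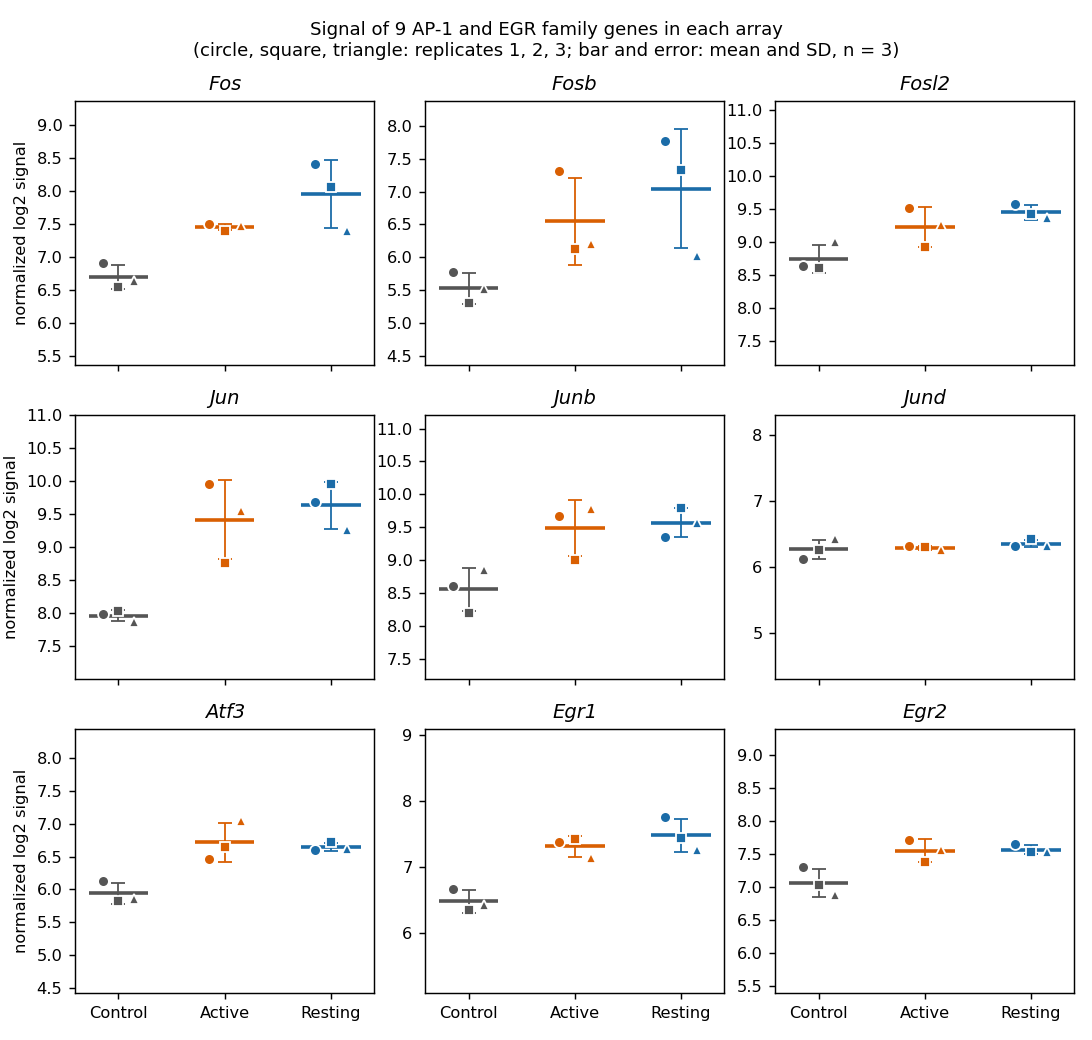
Normalized log2 signal (vertical axes, all spanning the same range) of 9 genes in each array of the Control, Active and Resting groups; symbols mark the replicates, the horizontal bar the mean and the error bar the SD (n = 3). In 7 genes the 3 Active arrays, and in 8 genes the 3 Resting arrays, lie above the 3 Control arrays, while the Jund arrays overlap Control in both groups.

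Counted over the members, the Active arrays lay wholly above the Control arrays in 7 of 9 genes (18.9% of all rows) and the Resting arrays in 8 of 9 (17.6% of all rows). The median log2 difference of the 9 genes was 0.77 for Active and 1.01 for Resting mice, while that of all rows was 0.02 in each comparison. Each member had its highest group mean in a fractured group, Jund included, whose differences did not pass. The share of all rows with this order was not counted. With the methods' t-test, adjusted over all rows, 2 members passed in Active mice (Fos and Egr1; 9.20% of all rows passed), 2 in Resting mice (Jun and Atf3; 8.12% of all rows), and 0 between the groups. Without Active replicate 3, 3 members passed in Active mice in place of 6.

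The direct comparison of the dosing times gave smaller values. In 8 of the 9 genes the Active mean was below the Resting mean, with a median log2 difference of -0.17 against -0.01 for all rows. Fos had a log2 difference of -0.50 (95% interval -0.97 to -0.02), at an unadjusted p = 0.042 and an adjusted p = 0.82, and the exact permutation p was 0.40. It was the single member with an unadjusted p under 0.05, a threshold passed by 6.11% of all rows. The log2 difference was -0.50 for Fosb (-1.42 to 0.42), -0.23 for Fosl2 (-0.58 to 0.13) and -0.17 for Egr1 (-0.50 to 0.16). The interval for Jun was -0.80 to 0.37, and that for Junb -0.58 to 0.41, so a 1.5-fold difference between dosing times was within the interval for Jun and just outside it for Junb. The intervals were narrower for Egr2 (-0.31 to 0.27), Atf3 (-0.26 to 0.40) and Jund (-0.29 to 0.17). The groups did not overlap in 1 gene, Jund, which was lower in the Active arrays by a gap of 0.0023 (4.77% of all rows were lower without overlap). The adjusted p was at least 0.82 for all members. Without Active replicate 1, 35 of all rows passed, and 0 members. The interval between last dose and harvest was not the same in both groups, and it cannot be told apart from the time of dosing.

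**Figure D2:**
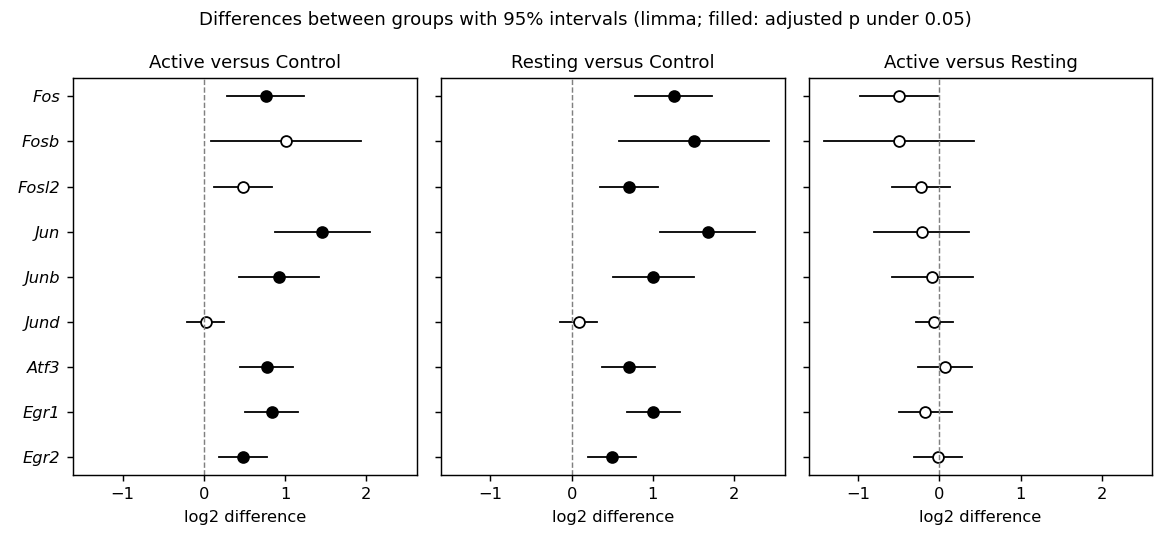
Log2 differences of 9 genes (points) with 95% intervals from limma, for Active against Control, Resting against Control and Active against Resting; filled points passed an adjusted p of 0.05. Of the 9 genes, 6 pass in the first panel, 8 in the second and 0 in the third, where 8 points lie left of zero.

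Within each of the 3 groups, 1 array had the lowest signal in 5 or more members. Control replicate 2 was the lowest in 6 members and lay on average 0.12 below its group mean. Active replicate 2 had the lowest signal of its group in 6 of the 9 members and lay on average 0.23 below the group mean over the members, while over all rows it lay 0.0067 below. Active replicate 1 was the highest in 6 members. Resting replicate 3 was the lowest in 5 members and the highest in 0, and lay on average 0.27 below its group mean. The shifts of Active replicate 2 and Resting replicate 3 were larger than the median difference of the members between the dosing times. Without Active replicate 2, the log2 difference between the dosing times was 0.11 for Jun, 0.16 for Junb and 0.07 for Egr2, opposite in sign to the value from all arrays.

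The lists that follow stand beside the shares of all rows that passed in either direction, 23.9% in Active and 19.1% in Resting mice, and beside a median of 0.02. Other immediate early genes were divided. Of 44 such genes, 13 rose and 5 fell in Active mice, while 16 rose and 2 fell in Resting mice, with median log2 differences of 0.15 and 0.23. Ptgs2, which encodes the COX-2 enzyme that carprofen inhibits, rose by 3.21 (SE 0.31) and 3.42 (SE 0.31) on the log2 scale. Cyr61, a matricellular protein, rose by 1.95 and 2.12, the kinase Plk2 by 1.58 and 1.48, and the kinase Sgk1 by 1.14 and 1.30. Ppp1r15a, a phosphatase subunit that restores translation after stress, fell, with log2 differences of -2.36 in Active and -1.85 in Resting mice (SE 0.18). None of the 44 passed between Active and Resting, where Ier2 had a log2 difference of -0.33 (adjusted p = 0.74). In that comparison, 36 had the lower mean in the Active group, with a median log2 difference of -0.12 against -0.01 for all rows. The share of all rows with a lower Active mean was not counted.

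Of 10 genes of the wider EGR and SRF machinery, 2 rose and 0 fell in each group. Nab2, a corepressor that EGR proteins induce and that then restrains them, rose by 0.64 in Active and 0.68 in Resting mice (SE 0.10, adjusted p = 0.00080 and 0.00074). Mkl2, a coactivator of SRF, rose by 0.59 and 0.47, and its Resting call was lost without Control replicate 3 or Resting replicate 1 or 2 (adjusted p from 0.054 to 0.079). With the rows of a gene averaged, the Resting difference of Mkl2 was 0.11 (adjusted p = 0.58). Without Control replicate 3 or Resting replicate 2, 1 of the 10 passed in Resting mice. Egr4 had log2 differences of -0.19 and 0.09, and did not pass.

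The other leucine zipper factors that can pair with AP-1 proteins or share their sites were divided between rising and falling genes. Of 31, 4 rose and 5 fell in Active mice, while 4 rose and 6 fell in Resting mice, with medians of 0.01 and -0.05, while 11.8% and 9.08% of all rows rose. Without any 1 of the Control or Resting arrays, 4 to 6 of the 31 passed in Resting mice in place of 10. Creb5 rose by 0.89 in Active and 0.48 in Resting mice, where the call was lost without Control replicate 1 or Resting replicate 3 (adjusted p = 0.056 and 0.051). Nfe2, a factor of erythroid cells and platelets, fell with log2 differences of -2.49 and -1.81. Bach2, a factor of B cells, fell with differences of -2.15 and -1.76, and the small Maf protein Mafk with -0.77 and -0.60. With the rows of a gene averaged, the differences of Bach2 were -1.01 and -0.80. The erythroid and B lymphocyte markers given below fell in the same comparisons, and their part in these values was not tested.

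Among genes known as AP-1 targets, more rose than fell. Of 22, 7 rose and 1 fell in Active mice, while 10 rose and 2 fell in Resting mice, with medians of 0.28 and 0.37. Timp1, an inhibitor of matrix proteases, rose by 3.35 and 3.52 (SE 0.11) and had the smallest adjusted p of all rows in both comparisons (3.35e-07 and 1.98e-07). Mmp3, a matrix protease, rose by 2.28 and 3.22, the chemokine Ccl2 by 2.15 and 2.20, and the protease Plau by 1.03 and 0.98. Mmp9, a protease of neutrophils and osteoclasts that is also in the osteoclast list, fell with log2 differences of -0.92 and -0.59, and its Resting call was lost without Control replicate 3 or Resting replicate 2 or 3 (adjusted p from 0.065 to 0.076). Without Control replicate 3 or Resting replicate 3, 7 of the 22 passed in the Resting group in place of 12. Of 12 genes known as EGR targets, 3 rose and 1 fell in each group. Tissue factor (F3), which starts blood clotting, rose by 1.13 and 0.92, and the growth factor Tgfb1 fell, with log2 differences of -0.65 and -0.64. Many other factors also act on these genes.

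Upstream kinases, stress genes and heat shock genes were counted in the same way. Of 24 MAP kinases and kinases that act on or after them, 2 rose and 7 fell in Active mice, while 1 rose and 4 fell in Resting mice. Map3k1, an activator of the JNK pathway, fell with log2 differences of -1.14 and -1.13, and Rps6ka1, a kinase activated by ERK, with -1.23 and -0.91 (-0.67 and -0.50 with its rows averaged). In place of 9 kinases in Active mice, 3 passed without Control replicate 3, 4 without Active replicate 1 and 5 without Active replicate 2. In place of 5 in Resting mice, 3 passed without Control replicate 3 and 2 without Resting replicate 2. Of 13 genes of the integrated stress response, a pathway that induces Atf3, 2 rose and 2 fell in Active mice, while 2 rose and 1 fell in Resting mice, near the shares of all rows. Ddit4, an inhibitor of mTORC1 signalling, rose by 0.81 and 0.62, and the lipoprotein receptor Vldlr by 1.01 and 0.77. The Resting call was lost without Control replicate 3 or Resting replicate 3 for Ddit4 (adjusted p = 0.051 and 0.057), and without Control replicate 1 or 3 or Resting replicate 1 or 2 for Vldlr (adjusted p from 0.058 to 0.079). Asns, an amino acid synthetase of that response, fell, with log2 differences of -0.66 and -0.67. In the Resting group, 1 of the 13 passed without Control replicate 3 in place of 3. Of 14 heat shock genes, 5 rose and 0 fell in Active mice, while 5 rose and 1 fell in Resting mice. The small heat shock proteins Hspb1 and Hspb8 rose by 1.66 and 1.77 in Active and by 1.80 and 1.88 in Resting mice, and with rows averaged Hspb1 rose by 0.94 and 1.15. No gene of these lists passed between the Active and the Resting group.

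**Figure D3:**
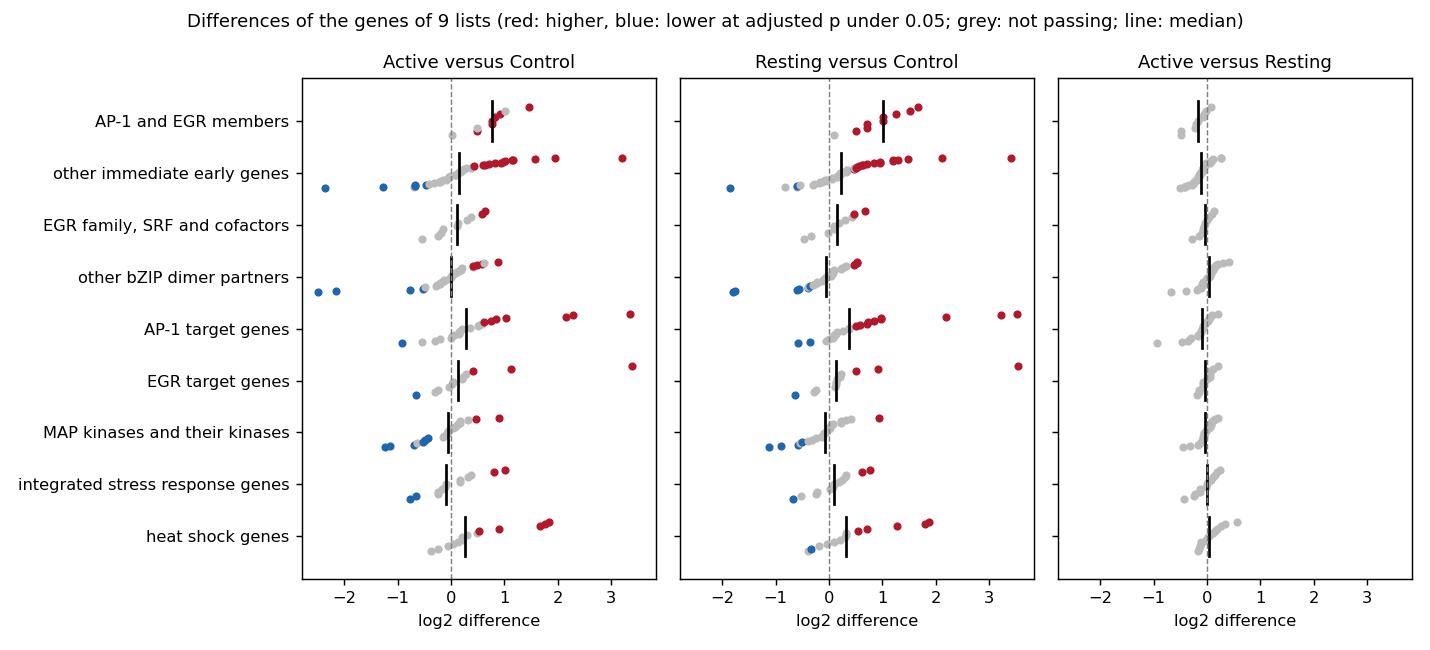
Log2 differences (horizontal axes) of every measured gene of 9 lists, for each comparison; red points are higher and blue points lower at an adjusted p of 0.05, grey points did not pass, and black lines mark the list's median. The 9 AP-1 and EGR factors sit right of zero against Control with medians of 0.77 and 1.01, other lists spread to both sides, and no point passes between Active and Resting.

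The tissue was a mix of cells, and the signals of many cell type markers differed between Control and the fractured groups. The labels name hematoma in every group, the unfractured Control included. The mean log2 signal of 11 osteoblast and osteocyte genes, Col1a1, Ibsp and Sp7 among them, lay between 8.16 and 8.49 in the Control, 8.47 and 8.91 in the Active and 8.43 and 9.23 in the Resting arrays. The mean log2 signal of 15 fibroblast and repair matrix genes lay between 8.31 and 8.76 in the Control arrays, between 10.15 and 10.42 in the Active arrays and between 10.07 and 10.50 in the Resting arrays, and 14 of 15 rose in each group. The mean of 13 macrophage genes lay between 7.91 and 8.29 in the Control arrays, 8.79 and 9.12 in the Active arrays and 8.69 and 9.26 in the Resting arrays, and 9 of 13 rose in each group, while 1, Lyz2, fell in Active mice. Endothelial genes rose in 5 and 4 of 10, and 1, Vwf, fell in each. Erythroid genes (12 of 12 in Active and 11 of 12 in Resting mice), B lymphocyte genes (12 of 13 in each) and neutrophil genes (14 and 7 of 14) fell. Osteoclast genes fell in 4 and 3 of 10 and cartilage genes in 3 of 10 in each. Osteoblast and osteocyte genes rose in 2 and 4 of 11 while 1, Sost, fell in Active mice. Skeletal muscle genes rose in 6 and 1 of 14. Of all rows, 11.8% rose in Active and 9.08% in Resting mice, and 23.9% and 19.1% passed in either direction. The muscle count in Resting mice was no higher than the share that rose, and the osteoblast and osteocyte count in Active mice was near it. No marker passed between the dosing times, while the list means of erythroid genes (7.26 to 8.24 in Active, 8.31 to 8.71 in Resting arrays) and neutrophil genes (9.60 to 10.22 and 10.43 to 10.72) did not overlap. Fewer cells of a type and less RNA per cell cannot be told apart in such samples. The part of these marker differences in the values of the AP-1 and EGR genes was not tested.

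**Figure D4:**
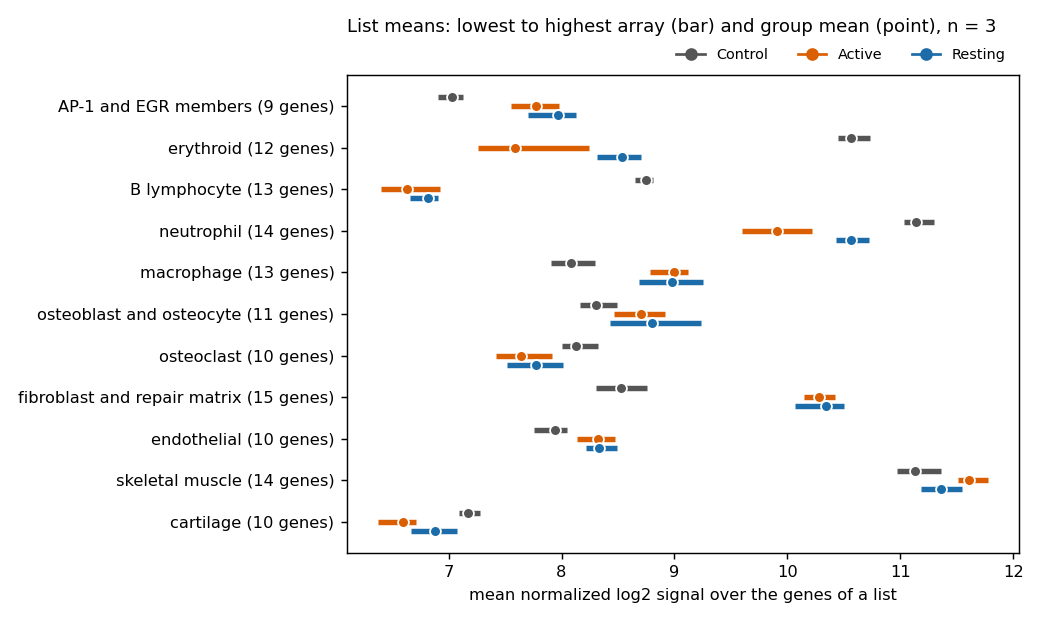
Mean normalized log2 signal over the genes of each list (horizontal axis), as the range over the 3 arrays of a group (bar) and the group mean (point), for the AP-1 and EGR factors and 10 cell type marker lists. The AP-1 and EGR means lie between 6.90 and 7.13 in Control, 7.55 and 7.98 in Active and 7.70 and 8.12 in Resting arrays, while the erythroid, B lymphocyte and neutrophil means lie lower and the repair matrix mean higher in both fractured groups.

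The genes whose pattern was closest to 3 of the members were found by the root mean square distance of log2 values, each centred on its mean over the 9 arrays. For Fos these were Egr1 (0.21), Ppp1r27 (0.24) and the immediate early nuclear receptor Nr4a2 (0.25), where Fos itself had an SD of 0.62 over the arrays. Nr4a2 had log2 differences from Control of 0.93 in Active and 1.19 in Resting mice. For Egr1 they were Adam23 (0.11), Bcar1 (0.13) and Tanc2 (0.13), and for Atf3 Wsb2 (0.086), Dbn1 (0.096) and Smpdl3b (0.10). The likeness was measured on the arrays of all groups, so a difference from Control like that of the member is part of the choice.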

How the data were processed

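Total RNA of the tibia segment was labelled and hybridized to GeneChip Mouse Gene 2.0 ST arrays. The authors normalized the signals and deposited them as 1 value per array; their methods name GeneSpring GX, used on entities that the software called present. The deposited values were taken to be log2 from their range. The normalization method, genome build and log base were not given in the sources used here. Array medians lay between 6.34 and 6.40, and arrays of a group correlated at 0.980 to 0.991 over all rows. The table with gene symbols was used. All of its 24367 rows were found by identical Control values (tolerance 1e-06) in the table of 41345 probe sets, in which replicate numbers within the Active and Resting groups differ; those of the first table are used. Where a symbol had several rows, the one with the highest mean stood for it. The number of arrays limits precision.

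Comparisons between groups used limma 3.58.1 (R 4.3.3; lmFit and eBayes, 6 residual degrees of freedom, Benjamini-Hochberg adjustment over all rows), and, for single genes, exact permutation tests. The limma fit was first run on simulated data. The permutation test and the promoter search were checked on small made-up inputs. Promoters were searched in Python 3.11.15 and figures drawn with matplotlib 3.10.9.

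The members, lists, marker genes and tests were chosen with earlier results of these data known. Of 293 further symbols listed, 290 had a row. Named genes are the members, in each list the genes of smallest p (up to 4 passing against Control in each comparison and 2 between Active and Resting), the brightest 3 markers and the nearest 3 profiles. Vwf and Sost were named after their values were seen. One gene that this rule names is not reported here. The motifs were chosen after the promoters were seen. Alternatives tried were the table of probe sets, the methods' t-test, the methods' threshold (unadjusted p under 0.05 with a 1.5-fold difference), only the 6 arrays compared, the 40% dimmest rows dropped, quantile normalization, centring on medians, a trend with intensity, weighted arrays, a replicate block, averaged rows and each array left out.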

Additional observations from a re-analysis of the deposited data

How the results depend on the processing

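With the methods' t-test, 2 members passed in Active and 2 in Resting mice in place of 6 and 8, with 2241 and 1978 of all rows in place of 5826 and 4653. In the other settings that kept all arrays, 5 to 7 members passed in Active and 7 or 8 in Resting mice. Leaving out 1 array gave 3 to 7 members in Active mice, the 3 without Active replicate 3, and 6 to 8 in Resting mice. Between Active and Resting, 0 members passed in every setting. Of all rows, 237 passed there at the unadjusted 1.5-fold threshold, 35 without Active replicate 1, 1 without Resting replicate 2, and 1 each with dim rows dropped or array weights, in place of 0. In the probe set table, Fos in Active mice (adjusted p = 0.057) and Fosb in Resting mice (adjusted p = 0.066) were lost, and array weights also ended both. Fosl2 in Active mice passed with quantile normalization (adjusted p = 0.025), array weights, averaged rows or dim rows dropped. Of 540 recomputed differences of members, 9 changed sign, none past the threshold before or after. For Active minus Resting, array weights gave 0.0017 for Junb and 0.014 for Egr2. Over the left-out arrays, this difference ranged from -0.48 to 0.11 for Jun, from -0.23 to 0.16 for Junb, from -0.10 to 0.069 for Egr2 and from -0.090 to 0.20 for Atf3. Jund in Active mice against Control ranged from -0.042 to 0.10. Of 480 counts over the other lists, 43 moved by more than 1.5 times. With the t-test, 8 and 10 other immediate early genes passed in place of 18 and 18, and 5 and 4 AP-1 targets in place of 8 and 12. No difference of a gene named from these lists changed sign in 1656 recomputed values, while 75 lost the threshold and 2 gained it. Both gains were between Active and Resting at the unadjusted 1.5-fold threshold, for Nfe2 (log2 difference -0.68) and Mmp3 (-0.93). Averaging the rows of a gene made the differences of Bach2, Rps6ka1, Hspb1 and the heat shock gene Hspa1a smaller by over 1.5 times. It also ended the Resting call of Mkl2 and the Active call of Hspa1a. The cause of these changes was not tested. Quantile normalization and median centring moved the median of all rows by less than 0.1.

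With the replicate number as a block, 7 members passed in Active mice, Fosb being added (adjusted p = 0.034), 8 in Resting mice and 0 between them. The numbers only name the arrays: deviations of same-numbered arrays correlated between -0.25 and 0.17, with 1 of 9 pairs over 0.1, and the deposited tables number the arrays differently.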
